A study of Mus musculus with 7 samples.

Results

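The genes described here are 40 regulators and enzymes of fatty acid synthesis, triglyceride storage and triglyceride release, chosen by function and found by symbol among the 27179 genes of the deposited table. All 40 were matched, and 36 of them reached a mean of 1 FPKM (fragments scaled by gene length and by library size) and were tested among 13418 such genes. Whole skinned ankles came from DBA1 mice that had developed collagen-induced arthritis, a joint inflammation raised by immunising against cartilage collagen. Each joint had received a lipoplex, a lipid carrier of RNA, loaded with a synthetic miR-17-5p (4 ankles, called mimic below) or with an irrelevant microRNA (3 ankles, called control). Every ankle was arthritic and every ankle received a lipoplex, so no uninjected or healthy joint is part of the comparison. The sources used here do not give sex, age, dose or the time from injection to dissection. They do not say if ankles within a group were from different mice, so p-values reflect only the spread among these 7 samples.

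Fat cells take up fatty acids released from lipoproteins, or make them from glucose, join them to glycerol as triglyceride, and store the triglyceride in a droplet coated by perilipins and CIDE proteins. Lipolysis reverses this stepwise, with one lipase for each fatty acid removed. PPARgamma and C/EBPalpha keep the fat cell differentiated, while SREBP-1c drives the lipogenic enzymes. An ankle without skin still holds fat cells in bone marrow, in the fat pads of the joint and between muscles, and several of the same genes are also active in muscle and macrophages.

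The microRNA that the mimic copies binds messages through its seed, bases 2 to 8, which pair with the complementary letters of a 3′ UTR and lower the stability of the message. Its RefSeq sequence (GRCm38.p6, chr14:115043684-115043706, plus strand) is shown with the seed in capitals, and below it are the sites of 3 of the 40 genes whose longest annotated 3′ UTR (GENCODE M21, GRCm38) holds the full 8-base match, in capitals. They are shown because the first 7 of these letters are complementary to the seed of the injected sequence, while the final A lies opposite its first base and is not a pair.
mmu-miR-17-5p: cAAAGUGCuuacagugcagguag
Elovl6, chr3:129635990-129636019, plus strand: atgcttccaaaGCACTTTAgtctcagtgtt
Slc2a4, chr11:69943291-69943320, minus strand: tttcctctacaGCACTTTAgccctctcttc
Mgll, chr6:88825968-88825997, plus strand: ttaaggagcagGCACTTTAtgaaggaggga
The search was for GCACTTTA and for its 7-base parts GCACTTT and CACTTTA, and the last of these 7-base matches overlaps the first. Plin4 and Cd36 hold GCACTTT, and Fabp5, Lpin1, Acsl1 and Ucp1, which was too scarce to test, hold CACTTTA. In all 8 of the 36 tested genes (22.2%) hold a match, against 21.4% of 12495 tested genes with an annotated 3′ UTR. Of these 8, 6 had a higher and 2, Elovl6 and Fabp5, a lower mean in the mimic ankles. The median log2 difference was 0.44 for the 8 and 0.45 for the 28 without a match, and -0.0083 and -0.0084 for all genes with and without one. A match is a description of letters and not a site shown to be bound. The seed is shared with miR-20a-5p, miR-20b-5p, miR-93-5p, miR-106a-5p, miR-106b-5p and miR-6383.

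The 7 libraries held 27465276 to 31118975 assigned reads, so that a single read over 1 kilobase equalled 0.0321 to 0.0364 FPKM. Values are given throughout in the order control replicates 2, 3 and 5, then mimic replicates 1, 2, 4 and 5. The fat cell hormone Adipoq was present in every library, at 36.7, 50.004 and 24.1 FPKM in the control ankles and 43.3, 61.9, 74.04 and 58.4 FPKM in the mimic ankles. Control replicate 5 stood apart in its epidermal keratins. It held Krt14 at 13.8 FPKM and Krt5 at 10.7 FPKM, both keratins of the basal epidermis, which were listed at 0 in control replicates 2 and 3 and reached at most 0.0199 and 0.0451 FPKM in the mimic ankles. Krt10 of the upper epidermis stood at 24.5 FPKM there and at 0.991 to 1.53 FPKM in the others. The same library had the lowest skeletal muscle, erythroid and adipocyte marker means of the 7, and the lowest value of 26 of the 36 tested lipid genes. Many differences below are therefore also given without it. Control replicate 2 was unlike the others in another way. In a fit that weights each library by how closely it follows its group, its weight was the lowest. It was 0.453, against 1.08 for control replicate 5.

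Most of these genes had higher means in the mimic ankles. Of the 36 tested, 30 were higher and 6 lower, with a median log2 difference of 0.45 against -0.0063 over all 13418 genes. Mean log2 levels were higher by 0.83 for the droplet coat gene Plin1, 1.16 for the desaturase Scd1, 1.16 for Gpd1 and 1.26 for Pck1, which supply the glycerol backbone, and 1.82 (3.54-fold) for Thrsp. Dgat1, which makes triglyceride, was lower in every mimic ankle, and Fabp5, Elovl6, Acly, Plin2 and Scd2 had lower means with groups that overlapped. All differences are on the scale of log2(FPKM + 0.5), which understates those of scarce genes. None passed over all genes with limma, a linear model fitted to each gene with a shared estimate of the spread: 0 of 36 had an adjusted p under 0.05, as did 0% of all genes tested, and the lowest adjusted p was 0.173 here and 0.148 over all genes. At an unadjusted p under 0.05 there were 16 higher (7.48% of all genes tested were) and 1 lower (10.1%). In 9 of the 36 every mimic library lay above every control library (6.48% of all genes tested), and in 1 every mimic library lay below (8.84%). Cidea and Acaca, at means of 0.574 and 0.977 FPKM in the controls, entered the tested set through their mimic values. These counts therefore describe the tested genes and are no support for a difference.

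**Figure D1:**
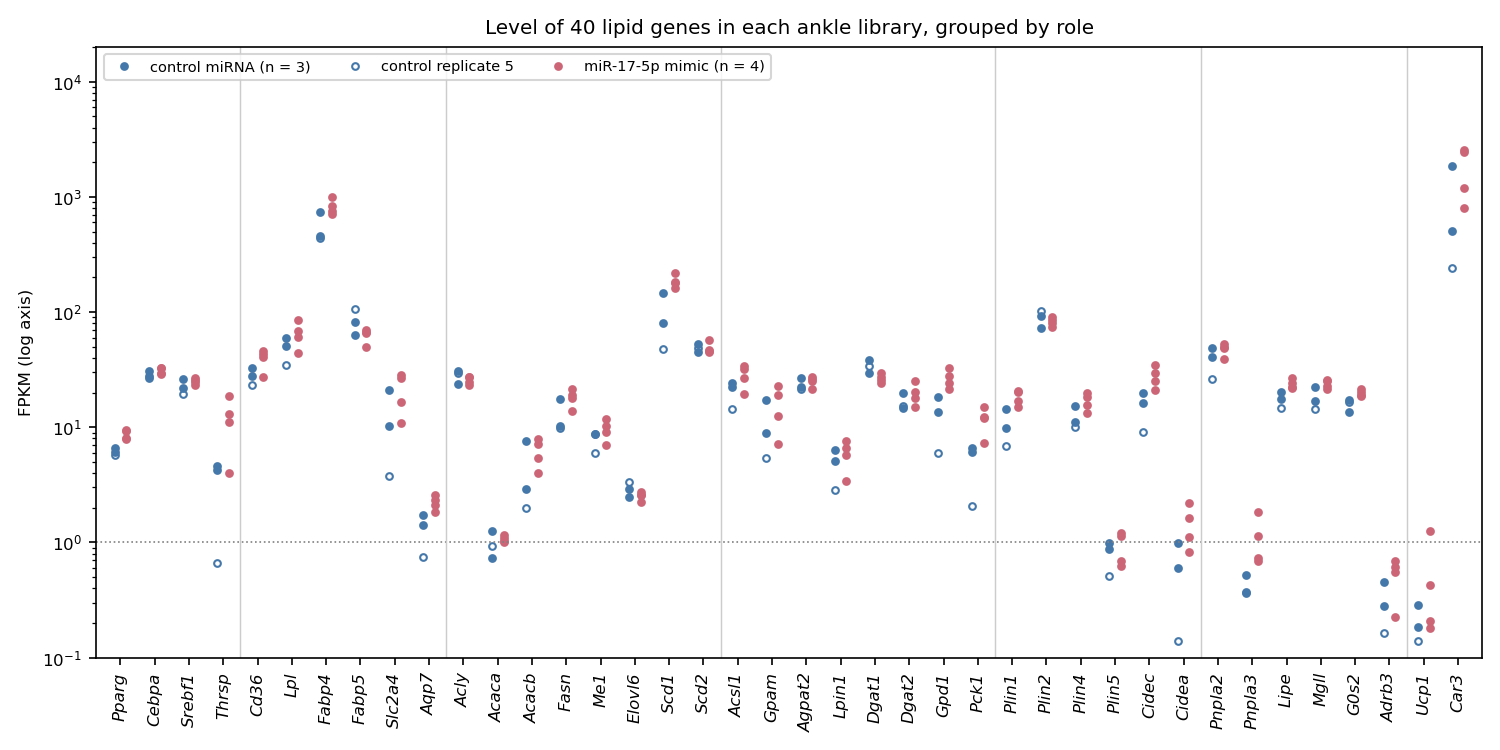
Level of each of the 40 genes in every library, in FPKM on a log axis, grouped by role and separated by vertical lines; each point is 1 library, open points are control replicate 5, and the dotted line marks 1 FPKM. Pparg, Aqp7, Scd1, Gpd1, Pck1, Plin1, Cidec, Lipe and G0s2 show no overlap between the 4 mimic and the 3 control ankles, with the mimic ankles higher (Pnpla3, below 1 FPKM, likewise), and Dgat1 shows none with the mimic ankles lower.

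Without control replicate 5, the median difference was 0.29 and the number with an unadjusted p under 0.05 and a higher mean was 9 (4.24% of all genes tested), while 9 did not overlap (8.46% of all genes tested). Of the 30 genes with a higher mean, 29 had a smaller difference without it, G0s2 being the exception. Without control replicate 2, 2 of the 36 passed over all genes, Fabp4 at a limma adjusted p of 0.0489 and Mgll at 0.0431, where 2.37% of all genes tested passed.

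Marker lists of several cell types also differed in mean between the groups. The 15 adipocyte markers tested share no gene with the 40. They were higher on average by 0.57 on the log2 scale (median 0.52, or 0.36 without control replicate 5). Of the 15, 8 were higher without overlap (6.48% of all genes tested) and 14 had a higher mean (48.35% of all genes tested). Their mean log2 level was 2.83 to 3.45 in the controls and 3.61 to 3.88 in the mimic ankles. All 15 skeletal muscle markers had higher means (median 1.04, or 0.34 without control replicate 5), and all overlapped. Of these, 0 had an unadjusted p under 0.05 (7.48% of all genes tested were higher at that level). Their summed level was 1462 to 8438 FPKM in the controls and 3409 to 12370.0 FPKM in the mimic ankles. Of 8 erythroid markers tested 7 were higher (median 1.11, or 0.67 without control replicate 5), summed at 192.7 to 681.9 and 249.3 to 1744 FPKM. Their part in the differences of the lipid genes was not tested. Differences with the muscle marker mean as a covariate are given below for many of the genes. In whole tissue a larger number of cells of a type and more RNA per cell cannot be told apart.

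**Figure D2:**
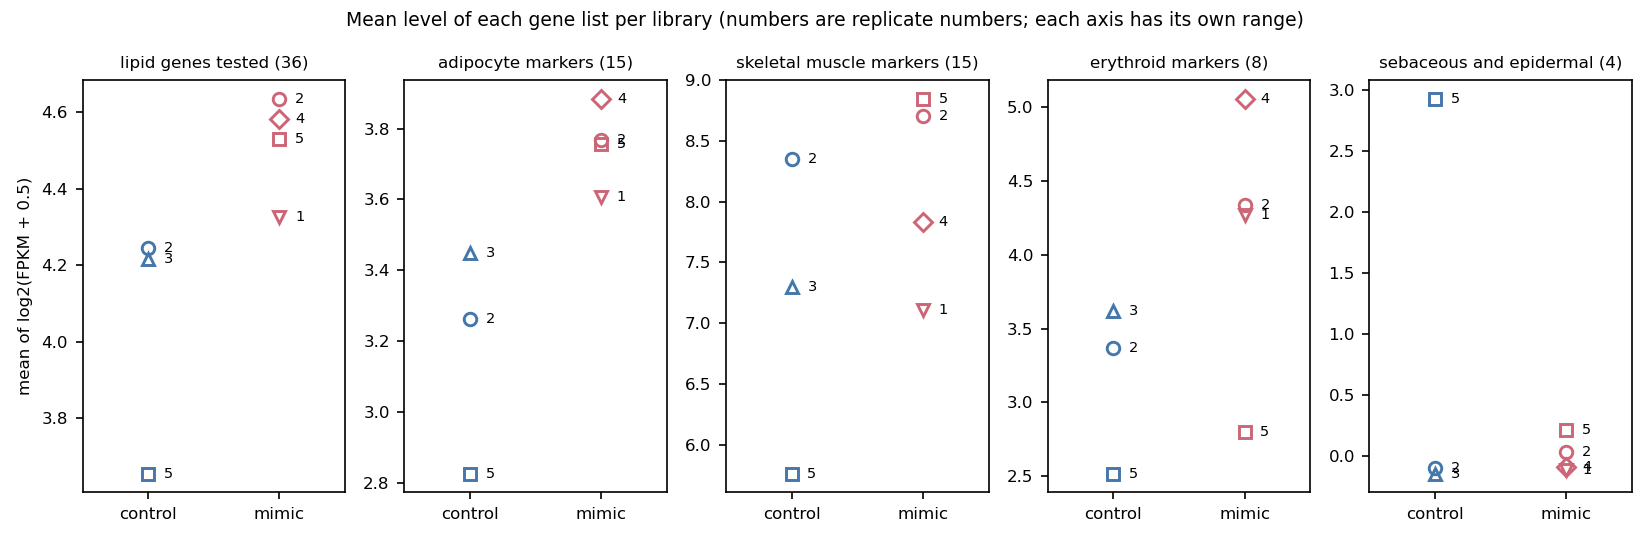
Mean of log2(FPKM + 0.5) over each gene list in each library, with control ankles on the left and mimic ankles on the right of each panel and the replicate number beside each point. The lipid and adipocyte means of the 4 mimic ankles lie above those of the 3 controls, the muscle and erythroid means overlap, and the epidermal mean is high in control replicate 5 alone.

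Of the 4 regulators, all had a higher mean in the mimic ankles (median 0.31) and 1, Pparg, did not overlap. Pparg (Entrez 19016, mm10 chromosome 6, 115361221 to 115490401), which encodes the nuclear receptor that commands fat cell differentiation, stood at 6.62, 6.06 and 5.74 FPKM in the control ankles and 7.94, 8.02, 9.42 and 9.35 FPKM in the mimic ankles. All 4 mimic values lay above all 3 control values. The log2 difference was 0.47 (SE 0.088, limma adjusted p = 0.173), and it was 0.42 without control replicate 5 and 0.40 with the muscle covariate, so it moved little with either. Cebpa (chromosome 7, 35119293 to 35121928), the partner factor that sustains Pparg in mature fat cells, stood at 26.9, 30.8 and 27.9 FPKM in the control ankles and 32.5, 28.8, 32.6 and 29.4 FPKM in the mimic ankles. These groups overlapped, with a log2 difference of 0.11 (SE 0.074, limma adjusted p = 0.458). Srebf1 (chromosome 11, 60199089 to 60220604), which encodes SREBP-1, the activator of lipogenic enzymes, stood at 21.99, 25.98 and 19.5 FPKM in the control ankles and 24.6, 23.1, 25.5 and 26.8 FPKM in the mimic ankles. It overlapped too, with 0.16 (SE 0.10, limma adjusted p = 0.440), or 0.061 without control replicate 5, and it shares 107 exon bases with Rai1 on the opposite strand. Thrsp, a nuclear protein that is induced with lipogenesis, varied widely between libraries, at 4.27, 4.63 and 0.656 FPKM in the control ankles and 11.02, 18.6, 13.1 and 4.01 FPKM in the mimic ankles. In 3 mimic ankles it exceeded every control, and in mimic replicate 5 it lay below control replicates 2 and 3. Its difference was 1.82 (SE 0.65, limma adjusted p = 0.232), or 1.12 without control replicate 5 and 0.82 with the erythroid marker mean as covariate.

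Of the 6 genes of uptake and transport, 5 had a higher mean (median 0.54). Fabp4 (chromosome 3, 10204342 to 10208576), the fatty acid carrier of fat cells, was among the most abundant of the set at 734, 454 and 443 FPKM in the control ankles and 711, 990.4, 830.1 and 749.8 FPKM in the mimic ankles. Control replicate 2 lay inside the mimic range and the other controls far below it, with a difference of 0.62 (SE 0.21, limma adjusted p = 0.217). Fabp5, the carrier found in epidermis and macrophages, had the opposite sign, at 82.8, 62.9 and 105 FPKM in the control ankles and 69.5, 67.4, 66.4 and 49.8 FPKM in the mimic ankles. Its highest value was in control replicate 5, the library with keratins. Control replicate 2 also lay above every mimic ankle, and control replicate 3 lay within their range. The difference of Fabp5 was -0.38 (SE 0.19, limma adjusted p = 0.337), or -0.20 without control replicate 5, and its cause was not tested. Aqp7 (Entrez 11832, chromosome 4, 41033074 to 41048136), the channel through which glycerol leaves fat cells, stood at 1.74, 1.43 and 0.745 FPKM in the control ankles and 2.11, 2.60, 1.82 and 2.33 FPKM in the mimic ankles. The groups did not overlap, with 0.62 (SE 0.21, limma adjusted p = 0.219), or 0.38 without control replicate 5 and 0.36 with the muscle covariate. Cd36, a fatty acid receptor, and Lpl, the lipase that frees fatty acids from lipoproteins, had differences of 0.47 and 0.41, both with overlapping groups. Without control replicate 5 these were 0.35 and 0.19, and with the muscle covariate 0.24 and 0.13. Slc2a4, the insulin-responsive glucose transporter of muscle and fat, stood at 21.3, 10.2 and 3.77 FPKM in the control ankles and 10.8, 28.4, 16.4 and 26.8 FPKM in the mimic ankles. It was lowest in control replicate 5 and highest in mimic replicates 2 and 5, as the muscle marker mean was. Its difference of 0.98 (SE 0.56, limma adjusted p = 0.386) was 0.37 without control replicate 5 and 0.13 with the muscle covariate.

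The path from citrate to monounsaturated fatty acids was not uniform, with 5 of 8 genes higher and 3 lower (median 0.19). Acly, which makes cytosolic acetyl-CoA, and Elovl6, which elongates palmitate, had lower means (-0.12 and -0.17), and Acaca, the acetyl-CoA carboxylase of lipogenic tissue, hardly differed at 0.977 ± 0.266 FPKM and 1.07 ± 0.0769 FPKM (SD, n = 3 and 4). Fasn (chromosome 11, 120805958 to 120824547), fatty acid synthase, stood at 10.2, 17.6 and 9.86 FPKM in the control ankles and 17.9, 19.2, 21.5 and 13.9 FPKM in the mimic ankles. Control replicate 3 lay within the mimic range, and the difference was 0.55 (SE 0.22, limma adjusted p = 0.271), or 0.24 with the erythroid covariate. Scd1 (Entrez 20249, chromosome 19, 44394450 to 44407709), the stearoyl-CoA desaturase of fat and liver, stood at 79.7, 145 and 47.4 FPKM in the control ankles and 178, 183, 216 and 163 FPKM in the mimic ankles. All mimic ankles exceeded all controls, with 1.16 (SE 0.33, limma adjusted p = 0.187), or 0.77 without control replicate 5. Scd2, the related desaturase of brain and other tissues, differed by less than its spread at 48.8 ± 3.85 FPKM and 48.9 ± 5.71 FPKM, a log2 difference of -0.0016 (SE 0.10). Reads of the Scd genes may be split between close copies. Acacb, the carboxylase that restrains fatty acid oxidation in muscle, had 0.65, which became 0.077 with the muscle covariate, and Me1, which supplies NADPH, had 0.27 and 0.013. Without control replicate 5, Acacb had 0.29 and Me1 0.10.

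In triglyceride assembly 7 of 8 genes had a higher mean (median 0.36). Gpd1 (Entrez 14555, chromosome 15, 99717593 to 99725008), which reduces dihydroxyacetone phosphate to glycerol-3-phosphate, stood at 13.6, 18.2 and 5.98 FPKM in the control ankles and 21.6, 24.3, 28.03 and 32.5 FPKM in the mimic ankles. No mimic ankle was as low as any control, with 1.16 (SE 0.34, limma adjusted p = 0.192), or 0.72 without control replicate 5. Pck1 (Entrez 18534, chromosome 2, 173153073 to 173159254), the carboxykinase of glyceroneogenesis in fat, stood at 6.09, 6.59 and 2.08 FPKM in the control ankles and 12.04, 12.4, 14.9 and 7.32 FPKM in the mimic ankles. The groups were again apart, with 1.26 (SE 0.38, limma adjusted p = 0.203), or 0.79 without control replicate 5, and 0.66 once erythroid markers were a covariate. Gpam, Agpat2 and Lpin1, which add the first fatty acids and remove the phosphate further along the path, had differences of 0.56, 0.092 and 0.28 with overlapping groups, and with the muscle covariate Gpam and Lpin1 stood at -0.14 and -0.12. Without control replicate 5 the 3 differences were 0.18, 0.025 and -0.022. Acsl1, which activates fatty acids with coenzyme A, had 0.45, or 0.23 without control replicate 5 and 0.12 with the muscle covariate.

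The enzymes of the last step, the acyltransferases that turn diglyceride into triglyceride, had opposite signs. Dgat1 (Entrez 13350, chromosome 15, 76502015 to 76511818), which also re-esterifies fatty acids in many cell types, stood at 29.8, 38.1 and 34.2 FPKM in the control ankles and 25.8, 27.2, 29.4 and 24.2 FPKM in the mimic ankles. Every mimic value was below every control, the closest pair being 29.4 and 29.8 FPKM, and the difference was -0.35 (SE 0.10, limma adjusted p = 0.189). It was -0.34 without control replicate 5 and -0.29 with the muscle covariate. Dgat2 (chromosome 7, 99153663 to 99182713), the isoform tied to newly made fatty acids, stood at 14.7, 19.7 and 15.3 FPKM in the control ankles and 17.98, 20.3, 24.96 and 14.9 FPKM in the mimic ankles, with overlapping groups and 0.21 (SE 0.18, limma adjusted p = 0.539), or -0.060 with the erythroid covariate.

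Among genes of the droplet coat, 4 of the 5 tested had a higher mean, and this role had the median of 0.83. Plin1 (Entrez 103968, chromosome 7, 79721164 to 79732776), the perilipin of fat cells, stood at 9.76, 14.3 and 6.87 FPKM in the control ankles and 14.8, 16.8, 20.5 and 20.3 FPKM in the mimic ankles. The lowest mimic ankle was just above the highest control, with 0.83 (SE 0.23, limma adjusted p = 0.179), or 0.59 without control replicate 5. Cidec (Entrez 14311, chromosome 6, 113424636 to 113435755), which fuses droplets into the single large droplet of white fat cells, stood at 16.3, 19.98 and 9.01 FPKM in the control ankles and 25.2, 29.8, 34.8 and 21.1 FPKM in the mimic ankles. It did not overlap either, with 0.90 (SE 0.28, limma adjusted p = 0.202), or 0.58 without control replicate 5, and 0.49 once erythroid markers were a covariate. Plin4 had 0.46 and Cidea, a droplet protein of brown fat, 0.88 at 0.574 ± 0.425 FPKM and 1.44 ± 0.610 FPKM. The difference of Cidea was 0.55 without control replicate 5 and 0.40 with the muscle covariate. Plin2 (chromosome 4, 86656565 to 86670059), the perilipin of nearly all cells including foamy macrophages, stood at 92.8, 72.5 and 103 FPKM in the control ankles and 85.005, 80.8, 90.9 and 73.9 FPKM in the mimic ankles, with overlapping groups and -0.10 (SE 0.13, limma adjusted p = 0.680), and at 0.0061 without control replicate 5. Plin5, the perilipin of oxidative tissue, was below the level tested, at 0.788 ± 0.247 FPKM and 0.911 ± 0.296 FPKM.

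All 4 lipolysis genes tested had a higher mean, between 0.33 and 0.44 on the log2 scale. Lipe (Entrez 16890, chromosome 7, 25379527 to 25395987), hormone-sensitive lipase, stood at 17.5, 20.2 and 14.7 FPKM in the control ankles and 22.2, 24.1, 26.6 and 22.1 FPKM in the mimic ankles. The groups did not overlap, with 0.44 (SE 0.11, limma adjusted p = 0.176), or 0.33 without control replicate 5. G0s2 (Entrez 14373, chromosome 1, 193272160 to 193273188), the protein that inhibits the first lipase, stood at 13.6, 17.1 and 16.5 FPKM in the control ankles and 21.5, 20.1, 18.8 and 18.9 FPKM in the mimic ankles. It was higher in all mimic ankles as well, with 0.33 (SE 0.093, limma adjusted p = 0.186), or 0.23 without control replicate 2. Pnpla2 (chromosome 7, 141455188 to 141460743), the lipase ATGL that takes the first fatty acid, stood at 49.03, 40.8 and 26.3 FPKM in the control ankles and 38.97, 53.2, 48.5 and 49.6 FPKM in the mimic ankles. It overlapped, with 0.33 (SE 0.21, limma adjusted p = 0.427), 0.078 without control replicate 5 and 0.036 with the muscle covariate. Mgll, which frees the last fatty acid, had 0.42 (SE 0.14, limma adjusted p = 0.219), or 0.23 with the muscle covariate. Exons of Lipe and G0s2 overlap other annotated transcripts on the opposite strand. At most, 453 of the 3266 bases of Lipe and 838 of the 843 bases of G0s2 are shared. Those of Fabp5, Lpl, Fasn, Scd2, Me1, Plin4 and Car3 overlap such transcripts too. The sources used here do not give the strand setting of the counts, so reads given to G0s2 may include those of the opposite transcript.

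Some of the 40 were scarce. Pnpla3, a lipase-like acyltransferase that lipogenesis induces, stood at 0.364, 0.517 and 0.370 FPKM in the control ankles and 1.15, 0.740, 1.85 and 0.689 FPKM in the mimic ankles, so the groups were apart, but its mean was below 1 FPKM; without that filter the difference was 0.76 (SE 0.24, limma adjusted p = 0.268). Adrb3, the adrenergic receptor of fat cells, stood at 0.299 ± 0.148 FPKM and 0.518 ± 0.204 FPKM. Ucp1 (chromosome 8, 83290348 to 83298456), the uncoupling protein of brown fat, stood at 0.185, 0.288 and 0.138 FPKM in the control ankles and 0.180, 0.430, 0.207 and 1.26 FPKM in the mimic ankles, from 7 to 60 reads. Mimic replicate 5 held the 60 reads, and the other mimic ankles 9 to 22. Car3, carbonic anhydrase 3, was the most abundant of the 40 in both groups and is a gene of both fat and slow muscle, at 1837, 510.2 and 239 FPKM in the control ankles and 795, 2430.2, 1191 and 2537 FPKM in the mimic ankles. Its difference of 1.35 (SE 0.72, limma adjusted p = 0.360) was 0.68 without control replicate 5 and 0.30 with the muscle covariate.

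**Figure D3:**
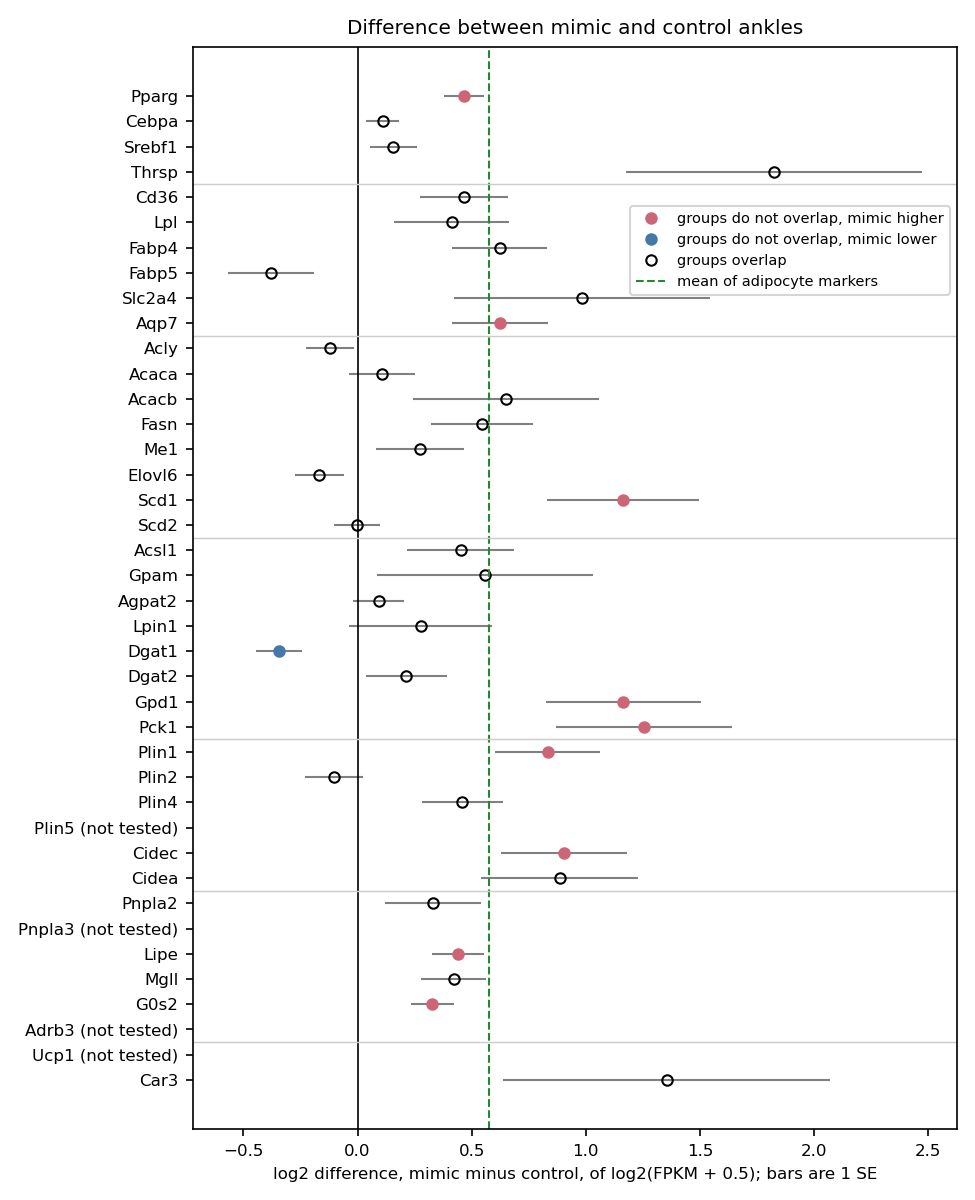
Difference between mimic and control ankles for each gene on the log2(FPKM + 0.5) scale, in role order from regulators at the top, with bars of 1 SE from limma; filled points are genes whose groups do not overlap and the dashed line is the mean difference of the adipocyte markers, 0.57. Thrsp has the highest value, 1.82, and Fabp5 the lowest, -0.38.

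**Figure D4:**
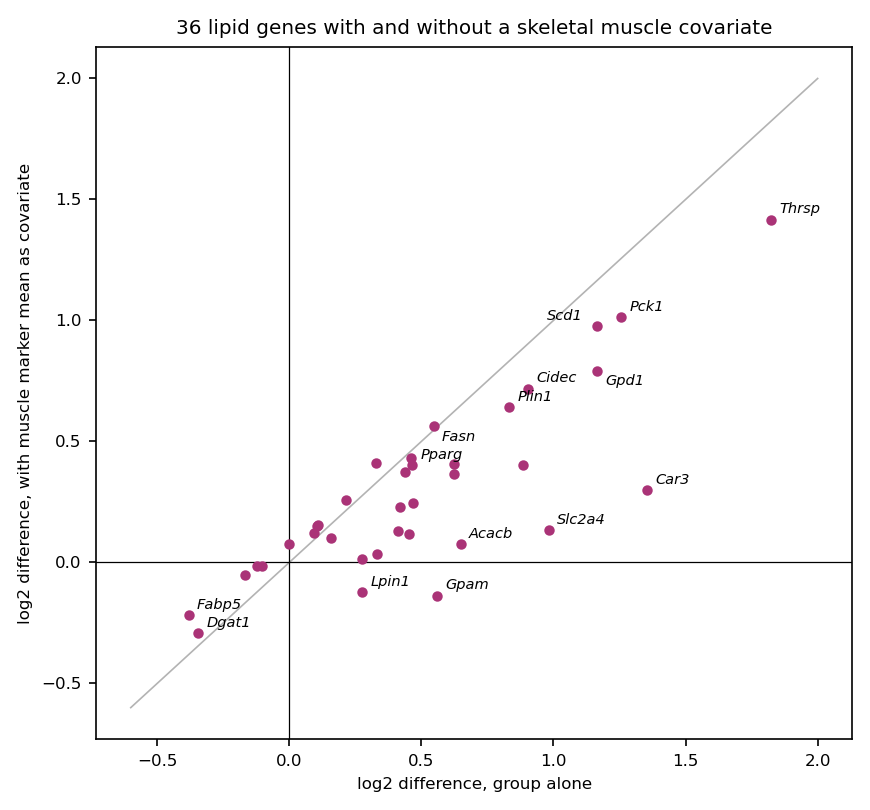
Difference between mimic and control ankles for the 36 tested genes on the log2(FPKM + 0.5) scale, fitted with group alone (horizontal axis) and with the muscle marker mean as covariate (vertical axis); the grey line marks equal values. Slc2a4, Car3, Acacb and Gpam lie far below the line, and Pparg, Fasn and Lipe lie near it.

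Of the 30 genes with a higher mean, 24 had a smaller difference with the muscle marker mean in the model and the median over the 36 was 0.19 in place of 0.45. For 10 genes less than 50% of the difference was left, and these were Slc2a4, Car3, Acacb, Gpam, Lpin1, Lpl, Acsl1, Pnpla2, Me1 and Cidea. Scd1, Pck1, Plin1, Cidec and Pparg kept differences of 0.98, 1.01, 0.64, 0.72 and 0.40, and Gpd1 and Thrsp had 0.79 and 1.42. With the erythroid marker mean as covariate instead, 24 of the 30 were also smaller. Scd1, Pck1, Plin1, Cidec and Pparg then had 0.79, 0.66, 0.71, 0.49 and 0.47.

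The set was also described relative to the fat cell markers, whose mean was itself higher in every mimic ankle. Subtracting that mean moved every gene down by 0.57 on average in the mimic ankles relative to the controls. The counts below therefore largely follow from this scale and are read only beside the shares of all genes. When the mean of the 15 adipocyte markers was subtracted in each library, 1 of the 36 stood higher in every mimic ankle (0.0298% of all genes tested), and 9 stood lower in every mimic ankle (60.4% of all genes tested). In either direction these 10 compare with 60.5% of all genes tested. The one higher was Gpd1, by 0.59 on the log2 scale. The 9 lower were Cebpa, Srebf1, Fabp5, Acly, Acaca, Elovl6, Agpat2, Dgat1 and Lipe. Pparg, which differed by 0.47 itself, differed by -0.11 on this scale, and Plin1 by 0.26 and Scd1 by 0.59, all with overlapping groups.

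Related genes were compared within each library, where the depth of the library cancels. These 5 pairs were chosen after their values were seen, so the p-values describe them and are no support for a difference. The adjustment over the 5 pairs does not allow for that choice. The 2-sided exact permutation test over the 35 ways to divide the libraries cannot go below 0.0571. The log2 ratio of Fabp4 to Fabp5 was 3.14, 2.84 and 2.07 in the controls and 3.35, 3.87, 3.63 and 3.90 in the mimic ankles. The groups did not overlap, with a difference of 1.00 (exact p = 0.0571, adjusted over the 5 pairs 0.0952). For Scd1 to Scd2 the log2 ratio averaged 0.75 ± 0.75 in the controls and 1.91 ± 0.26 in the mimic ankles (SD, n = 3 and 4), again without overlap (difference 1.17, exact p = 0.0571, adjusted 0.0952). For Dgat2 to Dgat1 it averaged -1.02 ± 0.10 and -0.46 ± 0.19, without overlap (difference 0.56, exact p = 0.0571, adjusted 0.0952). For Plin1 to Plin2 the difference was 0.94 with overlap (exact p = 0.114, adjusted 0.143), and for Acacb to Acaca 0.54 with overlap (exact p = 0.4, adjusted 0.4). In all 5 pairs the lowest ratio was that of control replicate 5. Without it the first 2 differences were 0.69 and 0.77, and those of the other pairs are not given here.

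The promoters of 3 genes whose groups did not overlap are shown because the C/EBP letters occur in them, and C/EBPalpha is one of the factors of the fat cell state. Each RefSeq window (GRCm38.p6) runs from 250 bases before to 50 after an annotated start. Pparg and Cidec also have windows at other annotated starts, which do not hold the C/EBP letters and are not shown. Capitals mark the C/EBP letters TTGCNNAA, the E-box CACGTG and the nuclear receptor half-site AGGTCA, each searched on both strands.
Pparg, chr6:115421816-115422115, plus strand: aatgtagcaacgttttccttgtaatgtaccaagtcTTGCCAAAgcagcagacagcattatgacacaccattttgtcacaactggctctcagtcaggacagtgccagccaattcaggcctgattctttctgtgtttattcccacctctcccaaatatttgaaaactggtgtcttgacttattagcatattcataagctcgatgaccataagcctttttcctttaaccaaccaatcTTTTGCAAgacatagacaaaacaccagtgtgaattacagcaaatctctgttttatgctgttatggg
Plin1, chr7:79732727-79733026, minus strand: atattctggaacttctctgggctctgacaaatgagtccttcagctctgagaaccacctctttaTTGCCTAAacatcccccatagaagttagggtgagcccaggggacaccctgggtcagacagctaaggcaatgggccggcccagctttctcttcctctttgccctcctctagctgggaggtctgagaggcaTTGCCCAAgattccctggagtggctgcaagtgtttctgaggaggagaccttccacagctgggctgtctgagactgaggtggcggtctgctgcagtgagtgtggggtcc
Cidec, chr6:113434715-113435014, minus strand: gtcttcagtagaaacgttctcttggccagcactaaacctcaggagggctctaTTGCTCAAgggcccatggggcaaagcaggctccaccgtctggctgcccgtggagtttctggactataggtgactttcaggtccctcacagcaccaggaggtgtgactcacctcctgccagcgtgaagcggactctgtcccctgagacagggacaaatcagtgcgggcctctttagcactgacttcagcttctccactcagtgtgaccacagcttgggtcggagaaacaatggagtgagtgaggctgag
Relative to the annotated start of each window shown, the C/EBP letters begin at -215 and -16 in Pparg, at -187 and -58 in Plin1 and at -198 in Cidec. Windows were given for 28 of the 40 genes, and shares are set beside those of all 27025 genes with a window and of the 10365 tested genes with one. A gene was counted when any of its windows held the letters, so genes with several windows had more occasions for a match. The C/EBP letters occur in 4 (14.3%, against 12.2% and 10.2%), with Gpam the fourth, and the half-site in 11 (39.3%, against 18.1% and 14.7%). The E-box occurs in 3 (10.7%, against 8.09% and 11.5%) and the SP1 letters GGGCGG in 16 (57.1%, against 38.2% and 67.3%), so both shares lie above that of all genes and below that of tested genes. The CCAAT letters occur in 14 (50%, against 41.1% and 42.4%). A DR1, which is 2 half-sites apart by 1 base, occurs in 0 (against 0.0481% and 0.0193%). The half-site is part of a DR1. No count here bears on binding.

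Among genes of the same pathways outside the 40, the direction differed by list, and those of glycerolipid synthesis mostly had lower means. Genes of cholesterol synthesis and fatty acid oxidation are described at the end. Among 25 further regulators 23 were tested, with 11 higher and 12 lower means (median -0.002). Cebpb, an early factor of fat cell differentiation that inflammation also induces, stood at 60.7, 68.03 and 75.7 FPKM in the control ankles and 29.2, 47.4, 44.2 and 28 FPKM in the mimic ankles. Every mimic ankle was below every control, with -0.90 (SE 0.20, limma adjusted p = 0.174). Ppard, a receptor of fatty acid oxidation, had -0.21 (SE 0.052, limma adjusted p = 0.176). Of 22 cofactors of droplets and lipolysis 17 were tested, 10 higher and 7 lower (median 0.07). Ces1d, a triglyceride hydrolase of fat, stood at 4.25, 2.98 and 0.841 FPKM in the control ankles and 7.83, 11, 9.77 and 6.52 FPKM in the mimic ankles. No control reached the lowest mimic value, with 1.70 (SE 0.41, limma adjusted p = 0.174). Angptl4, the inhibitor of Lpl, had -0.67 (SE 0.16, limma adjusted p = 0.174). Abhd5, the coactivator of Pnpla2, had 0.071 (SE 0.080, limma adjusted p = 0.644).

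Of 21 further enzymes of glycerolipid synthesis 19 were tested, 5 higher and 14 lower (median -0.09), with 4 lower in every mimic ankle (8.84% of all genes tested). Gpat3, an acyltransferase, had -0.36 (SE 0.10, limma adjusted p = 0.184). Of 25 further genes of fatty acid synthesis, elongation and desaturation 18 were tested, 9 higher and 9 lower (median -0.01). Acss2, which makes acetyl-CoA from acetate, had 0.45 (SE 0.14, limma adjusted p = 0.200), and Fads1, a desaturase of polyunsaturated fatty acids, 0.055 (SE 0.057, limma adjusted p = 0.621). Of 13 further genes of uptake and binding 10 were tested, 5 higher and 5 lower (median -0.002). Fabp3, the carrier of muscle, had 0.52 (SE 0.51, limma adjusted p = 0.602). None of these passed over all genes.

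The other cell type lists were described in the same way. Of 13 macrophage markers 4 were higher and 9 lower (median -0.08, from -0.18 to -0.0080 on leaving out each library), their mean log2 level being 6.02 to 6.09 in the controls and 5.77 to 6.22 in the mimic ankles. Of 12 preadipocyte and stromal markers tested 8 were higher and 4 lower (median 0.17, from 0.089 to 0.22 on leaving out each library), with Pdgfra at -0.11 (SE 0.14, limma adjusted p = 0.681). Of 9 endothelial markers 7 were higher (median 0.11, or 0.022 without control replicate 3). All 9 cartilage markers tested were higher (median 0.59, or 0.27 without control replicate 3), 3 of them without overlap (6.48% of all genes tested). Of 10 sebaceous and epidermal markers 4 were tested, 1 higher and 3 lower (median -1.28, or 0.14 without control replicate 5, the library with keratins).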

How the data were processed

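Gene expression was measured by RNA-seq in 7 ankle libraries, 3 control and 4 mimic. The authors deposited 1 table of FPKM values per gene with gene lengths, per the file headers, and the groups follow the sample labels. Per the submitters' processing notes, which give no roles, the tools were STAR 2.5.2b, bcl2fastq 2.20, DESeq2 1.14.1, Subread and featureCounts, with builds mm10 and GRCm38. Annotation release and strand setting: not given in the sources used here. FPKM times length gave whole reads, within 0.01 read, for 100% of values, and depth was read from these. Of 27179 genes 25275 matched a RefSeq symbol (GRCm38.p6) by Entrez number, and of 261 entries of the other gene lists 2, Hbb-bt and Ahsp, were unmatched.

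Genes averaging 1 FPKM or more were tested on log2(FPKM + 0.5) with limma 3.58.1 (R 4.3.3, lmFit and eBayes with trend), group as the only term, 2-sided, with Benjamini-Hochberg adjustment over all 13418 genes and a threshold of 0.05. The fit was tested on simulated data. Alternatives were other pseudocounts, filters, library weights and scaling, a block for replicate number, muscle or erythroid marker means as covariates, each library left out, and, chosen after seeing the data, limma-voom on the recovered reads. The 40 genes and the lists were chosen with earlier results of these data known. All 40 may be named; per-library values are given for those whose groups do not overlap, for a fixed set of core genes and for some others; of each other list up to 3 genes with the smallest p and a few fixed genes are named. Coordinates are the outermost exon ends in the deposited table. The pairs of related genes, and per-library values of Thrsp, Fabp5, Slc2a4, Pnpla3, Car3, Adipoq, Cebpb, Ces1d and Hadh beyond that rule, were chosen after their values were seen.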

Additional observations from a re-analysis of the deposited data

Results flagged for a closer look

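In 36 tested genes with 4 mimic libraries each, a single library far from the other 3 was looked for with Dixon's test, which chance alone meets in about 1 of 20 groups. Fabp5 in mimic replicate 5, at 49.8 FPKM, lay far below the other mimic ankles. Scd2 in mimic replicate 1, at 57.4 FPKM, lay far above them.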

How the results depend on the processing

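The number of genes passing over all genes was 0 in each direction, and ranged from 0 to 115 higher and from 0 to 203 lower when each library was left out, with both highest counts without control replicate 2. Without a filter on low values 1 gene was lower. Of the lipid genes, 0 to 2 passed higher on leaving out a library. Those with an unadjusted p under 0.05 numbered 5 higher with the erythroid covariate and 0 lower with the replicate block, and 9 to 18 higher and 1 to 3 lower on leaving out a library, with 9 without control replicate 5. Non-overlapping genes ranged from 9 to 16 higher and 1 to 3 lower, and relative to the adipocyte markers from 1 to 5 higher and 9 to 14 lower. Shares of all genes were not taken at each of these settings, so the ranges are a description only. The median was 0.19 with the muscle covariate. Signs reversed for Dgat2 (-0.06) and Agpat2 (-0.061) with the erythroid covariate, and for Scd2 (0.076), Gpam (-0.137) and Lpin1 (-0.121) with the muscle covariate. On leaving out a library, differences ranged from -0.25 to 0.0061 for Plin2, -0.015 to 0.24 for Acaca, -0.08 to 0.054 for Scd2 and -0.022 to 0.50 for Lpin1. The cause of these changes was not tested. Replicate numbers 2 and 5 occur in both groups; deviations of same-numbered libraries correlated at 0.535 and -0.435, which does not settle whether the numbers pair the libraries, and they were treated as numbers only. The replicate block gave 14 higher and 0 lower at an unadjusted p under 0.05 with a median of 0.58. With limma-voom on recovered reads, 2365 genes had an unadjusted p under 0.05 and 0 passed. edgeR and DESeq2 were not run on the recovered reads. With 3 and 4 libraries, a missed threshold does not show that levels are alike.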

Other observations

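Genes of cholesterol synthesis, which SREBP-2 drives, mostly had lower means in the mimic ankles. Of 21, 19 were tested, 18 lower and 1 higher (median -0.20, or -0.12 with the muscle covariate), and 5 had an unadjusted p under 0.05 (10.1% of all genes tested were lower at that level). Ebp, a sterol isomerase, had -0.20 (SE 0.085, limma adjusted p = 0.280) with every mimic ankle below every control. None passed over all genes.

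Genes of fatty acid oxidation had 19 higher and 4 lower means of 23 tested. Their median was 0.09, from 0.042 without control replicate 5 to 0.18 without control replicate 2, and -0.0064 with the muscle covariate. Of the 23, 1 had a higher mean with an unadjusted p under 0.05 (7.48% of all genes tested did). That was Hadh, a mitochondrial dehydrogenase, at 36.8, 29.1 and 26.9 FPKM in the control ankles and 36.9, 42.8, 36.6 and 41.6 FPKM in the mimic ankles, with 0.36 (SE 0.12, limma adjusted p = 0.215). Cpt1b, the muscle carnitine transferase, was below the tested level at 0.321 ± 0.167 FPKM in controls and 0.466 ± 0.263 FPKM in mimic ankles (SD, n = 3 and 4). Of 11 brown and beige fat markers 5 were tested, all with higher means (median 0.41, or 0.17 without control replicate 5 and 0.078 with the muscle covariate), and Kcnk3, a potassium channel, did not overlap, with 0.41 (SE 0.13, limma adjusted p = 0.203). Cox7a1 and Cox8b, respiratory subunits of brown fat and muscle, had 0.86 (SE 0.52, limma adjusted p = 0.404) and 0.84 (SE 0.67, limma adjusted p = 0.519), both with overlapping groups. The muscle marker means were higher on average in the mimic ankles but overlapped. Their part in these differences was not tested.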
